A study of Mus musculus with 6 samples.

Results

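Cytosolic ribosomal proteins are the protein components of the ribosomes that translate nuclear-encoded mRNA, and their genes are described here in cells sorted from the skull bone of mice given LPS. Members were the gene names made of Rps or Rpl with a number and at most 1 trailing a, x or l, together with Rpsa, Rplp0, Rplp1 and Rplp2. They also had to reach 1 FPKM in the mean of the 6 libraries. FPKM counts fragments per kilobase of transcript at a common library size, so levels of different genes are compared per length. Of 81 matching names among the 23284 names measured, 78 passed the minimum, 32 of the small and 46 of the large subunit. The 78 genes were part of 10865 genes at or above the minimum. Core genes that the name rule misses include Fau and Gnb2l1, and 76 of the 80 core ribosomal protein genes of the mouse were members. Rpl3l and Rps27l, which encode paralogs, were the 2 members outside the core.

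The cells carried EGFP driven from the Cx3cr1 gene, a chemokine receptor gene active in monocytes, macrophages and some other leukocytes, and they were collected from the calvaria of CX3CR1-EGFP mice by a cell sorter. In both groups lipopolysaccharide (LPS), a bacterial cell wall component, had been given at the calvarial periosteum 5 days earlier. One group (3 libraries) had received 10 mg/kg CTLA4-Ig (abatacept in the sample titles), a fusion protein that blocks T cell costimulation by masking CD80 and CD86, and the other group (3 libraries) had received 10 mg/kg whole human IgG as the control. No group without LPS was analysed here. The titles call the libraries biological replicates and do not say which or how many animals each one came from, so p-values measure the spread between these libraries. The series title places the comparison in gene expression tied to the movement of osteoclast precursors.

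Each ribosome holds 1 copy of nearly every ribosomal protein, arranged on ribosomal RNA in a small subunit, which decodes mRNA, and a large subunit, which joins amino acids. The mRNAs of these genes are among the most abundant in dividing cells. They begin with a cytosine followed by a run of pyrimidines, the 5′ terminal oligopyrimidine (TOP) motif, through which mTORC1 and the RNA-binding protein LARP1 control their translation. Ribosome production is high in proliferating myeloid precursors and declines as granulocytes mature. Ribosomal protein genes also have many retrotransposed copies in mammalian genomes, some nearly identical to the parent gene.

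Relative depth was estimated from the value of 1 fragment in genes with low FPKM. Ratios to CTLA4-Ig library 1 far from 1 were dropped beforehand, so a large difference in depth could not have shown. The estimate also carries the authors' scaling. It put CTLA4-Ig libraries 2 and 3 at 0.942 and 1.15 times the depth of CTLA4-Ig library 1. Control libraries 1, 2 and 3 were put at 0.954, 1.04 and 0.994 times. Summed FPKM ran from 770271 to 851706 with CTLA4-Ig and from 726358 to 759683 with control IgG. Monocyte markers were present in every library, with Csf1r at 140.4 to 192.7 FPKM, Ly6c2 at 2157 to 2335 FPKM and Cx3cr1 at 12.3 to 32.5 FPKM. Neutrophil granule genes had the highest levels of the markers examined, and the pair S100a8 and S100a9 held 17.1, 21.9 and 19.995% of the summed FPKM with CTLA4-Ig against 14.2, 15.9 and 14.4% with control IgG. Summed B lineage markers (5 genes) and T and NK markers (6 genes) stayed at or under 18.6 and 14.1 FPKM.

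Ribosomal protein genes were among the most abundant transcripts of these cells. The median member mean was 1296 FPKM, above 99.2% of the genes at or above the minimum, and 51 of the 100 genes with the highest mean FPKM were members. In 69 of 78 members the mean reached 500 FPKM. Small subunit genes had a median mean level of 1565 FPKM and large subunit genes 1188 FPKM. The lower and upper quartiles of the member means were 865 and 1749.7 FPKM. Across the members, mean FPKM had a Spearman rho of -0.22 with coding length and of -0.07 with the number of near-identical genomic copies, as a description of 78 genes that share the same libraries.

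Rps29 (chr12:69157722-69159186), a short zinc-binding protein of the small subunit head, had the highest mean, with 3727, 3454 and 4136 FPKM with CTLA4-Ig against 4051, 3666 and 3719 FPKM with control IgG in libraries 1, 2 and 3 of each group. The highest value was in CTLA4-Ig library 3 and the lowest in CTLA4-Ig library 2, so the groups overlapped. Next was Rplp1 (chr9:61913283-61914510), 1 of the acidic proteins of the stalk that recruits translation factors, with 2863, 2569.5 and 3221 FPKM with CTLA4-Ig against 3785, 2805 and 2958 FPKM with control IgG. Control library 1 stood above the other 5 libraries for this gene. Rpl41 (chr10:128548110-128549168), which encodes a very short basic peptide of the large subunit, followed with 2796, 2600.5 and 2955 FPKM with CTLA4-Ig against 3289, 2591 and 2702 FPKM with control IgG. Rpl38 (chr11:114667818-114672333), known for its part in the translation of a subset of Hox mRNAs, had 2694, 2536 and 2993 FPKM with CTLA4-Ig against 3238, 2637 and 2698 FPKM with control IgG. In both Rpl41 and Rpl38, control library 1 was highest and libraries of the 2 groups interleaved. Rps12 (chr10:23785183-23787383) had 2544, 2311 and 3030.5 FPKM with CTLA4-Ig against 3428, 2571 and 2654 FPKM with control IgG, with control library 1 again highest. The means of Rpl41, Rpl38 and Rps12 (2822, 2799 and 2757 FPKM) were closer to each other than their spread over libraries. Coordinates of the ribosomal protein genes are RefSeq's on build GRCm38, the assembly behind mm10.

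The promoters of Rpl41, Rpl38 and Rps12 are shown because they are the 3 most abundant members with an entry in the RefSeq promoter table (GRCm38.p6). Each line gives the 60 bases from 40 before to 20 after the annotated start, 5′ to 3′ on the gene's strand, with the longest run of C and T around the start in capitals.
Rpl41 (chr10:128549149-128549208, minus strand): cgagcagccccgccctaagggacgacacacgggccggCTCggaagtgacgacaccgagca
Rpl38 (chr11:114668540-114668599, plus strand): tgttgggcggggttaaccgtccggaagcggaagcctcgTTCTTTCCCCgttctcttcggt
Rps12 (chr10:23787190-23787249, minus strand): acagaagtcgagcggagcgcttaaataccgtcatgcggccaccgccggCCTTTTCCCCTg
The annotated start is that of the promoter entry. In Rpl38 and Rps12 it lies inside the gene coordinates given above, so it is not their outermost start, while in Rpl41 it is. The run spanned 10 bases in Rpl38, beginning 2 bases before the annotated start. In Rps12 it spanned 11 bases, beginning at base 9 counted from the annotated start. In Rpl41 no run longer than 3 bases lay within 20 bases of the annotated start. An entry was found for 58 of the 78 members, 70 entries in all. A pyrimidine run of at least 8 bases within 20 bases of the start was present in 42.9% of these entries and in 16.0% of all 32851 promoter entries.

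Of the motifs looked for in the 300 bases of each entry, on both strands, the ETS core CCGGAAG was present in 35.7% of the member entries and 8.86% of all entries. The SP1 and KLF core GGGCGG was in 60% and 35.7%, the YY1 motif AAGATGGC in 10% and 2.75%, and the ZBTB33 core CTCGCGAG in 10% and 0.919%. The TATA box TATAAA was in 8.57% of member entries and 13.6% of all entries. No motif contains another. These are matches of letters and not measured binding, and entries of all genes differ in base composition from those of the members, with a median GC content before the start of 52.4% against 57.6%.

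**Figure D1:**
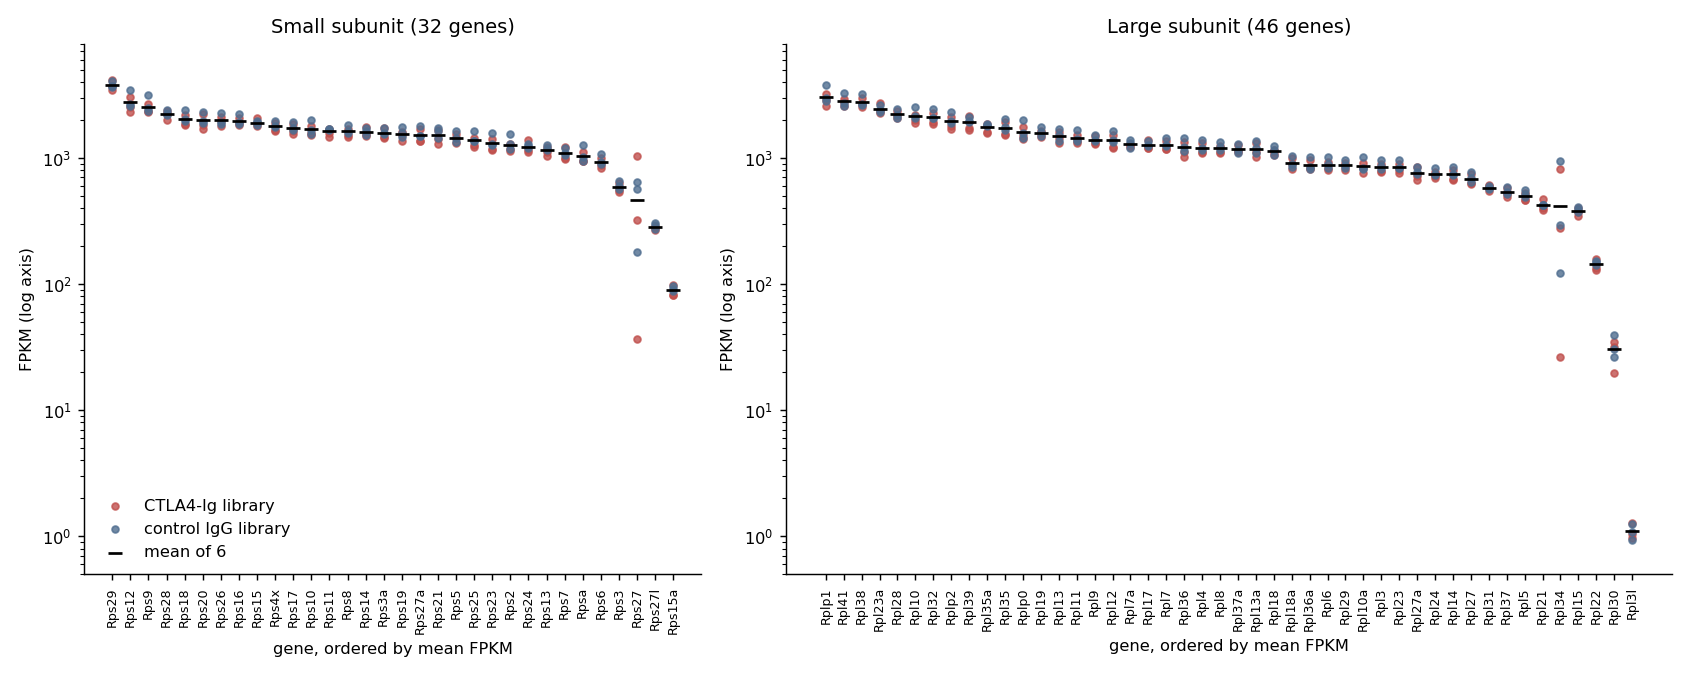
FPKM of the 32 small subunit genes (left) and 46 large subunit genes (right) on a log axis, ordered by mean. Each dot is 1 library and each bar the mean of 6. Most genes lie above 500 FPKM with the 6 libraries close together, while Rps27 and Rpl34 spread over 28.1-fold and 35.7-fold.

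At the lower end, 9 members had a mean under 500 FPKM. Rps15a, a small subunit protein of a family shared with bacteria, had 81.9, 81.4 and 98.99 FPKM with CTLA4-Ig against 96.7, 87.8 and 91.3 FPKM with control IgG, and Rpl22, whose loss in mice blocks development of alpha-beta T cells, had 135, 128 and 159 FPKM with CTLA4-Ig against 149.5, 142 and 151 FPKM with control IgG. The groups overlapped in both. Rpl3l, the muscle paralog of Rpl3, was the member just inside the minimum, with 0.964, 1.28 and 1.05 FPKM with CTLA4-Ig against 1.26, 0.930 and 1.09 FPKM with control IgG. Just outside it lay Rpl39l, a paralog of Rpl39 expressed in testis, with a mean of 0.644 FPKM. Rpl10l, the testis paralog of Rpl10, was listed at 0 in all 6 libraries, and so was Rpl26, a core gene of the large subunit that is taken up again with the near-identical copies.

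Between CTLA4-Ig and control IgG, no ribosomal protein gene passed the test, and nearly all had slightly lower fitted means with CTLA4-Ig. Each gene was tested with limma on log2(FPKM + 1), and p-values were adjusted by Benjamini-Hochberg over all 10865 genes. After adjustment 0 of 78 members were called at 0.05, as were 0% of all genes tested (0 genes). At an unadjusted p under 0.05, 0 of 78 members and 6.07% of all genes were called. The log2 fold change (CTLA4-Ig minus control) was negative in 75 of 78 members and in 52.3% of all genes. Libraries of the 2 groups did not overlap in 0 of 78 members and in 12.2% of all genes. The median log2 fold change was -0.09 over the members, -0.09 in the small subunit, -0.08 in the large subunit and -0.01 over all genes tested. In 58 of 78 members the standard error exceeded the size of the fold change. In bulk libraries, fewer cells with many ribosomal protein transcripts and fewer such transcripts per cell cannot be told apart.

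The members shift together with the library, so their 78 signs are not 78 separate observations. Without control library 1 the median was -0.02 and 55 members were negative. It was -0.03 when CTLA4-Ig library 2 was left out, -0.16 when CTLA4-Ig library 3 was, and -0.14 when control library 2 was. When CTLA4-Ig library 3 was left out, 44 of 78 members did not overlap between groups, all lower with CTLA4-Ig, against 23.8% of all genes.

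The size of the difference depended on how libraries were scaled, while the median over the members was negative under each of the 4 other scalings tried. With every library brought to the same summed FPKM (TPM), the median over all genes moved to -0.13 and that over the members to -0.22. Relative to the median of all genes, the members were at -0.09 on that scale and at -0.08 on the authors' scale. With TPM, 31 members did not overlap between groups against 24.3% of all genes, all of the 31 lower with CTLA4-Ig, and the smallest adjusted p of a member was 0.328. At an unadjusted p under 0.05 on that scale, 13 members (16.7%) were called against 15.0% of all genes. The 178 genes of all kinds with a mean of at least 500 FPKM included 69 of the members. Over all 178 the median log2 fold change was -0.04 and 110 (61.8%) were negative, of which 67 were members.

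**Figure D2:**
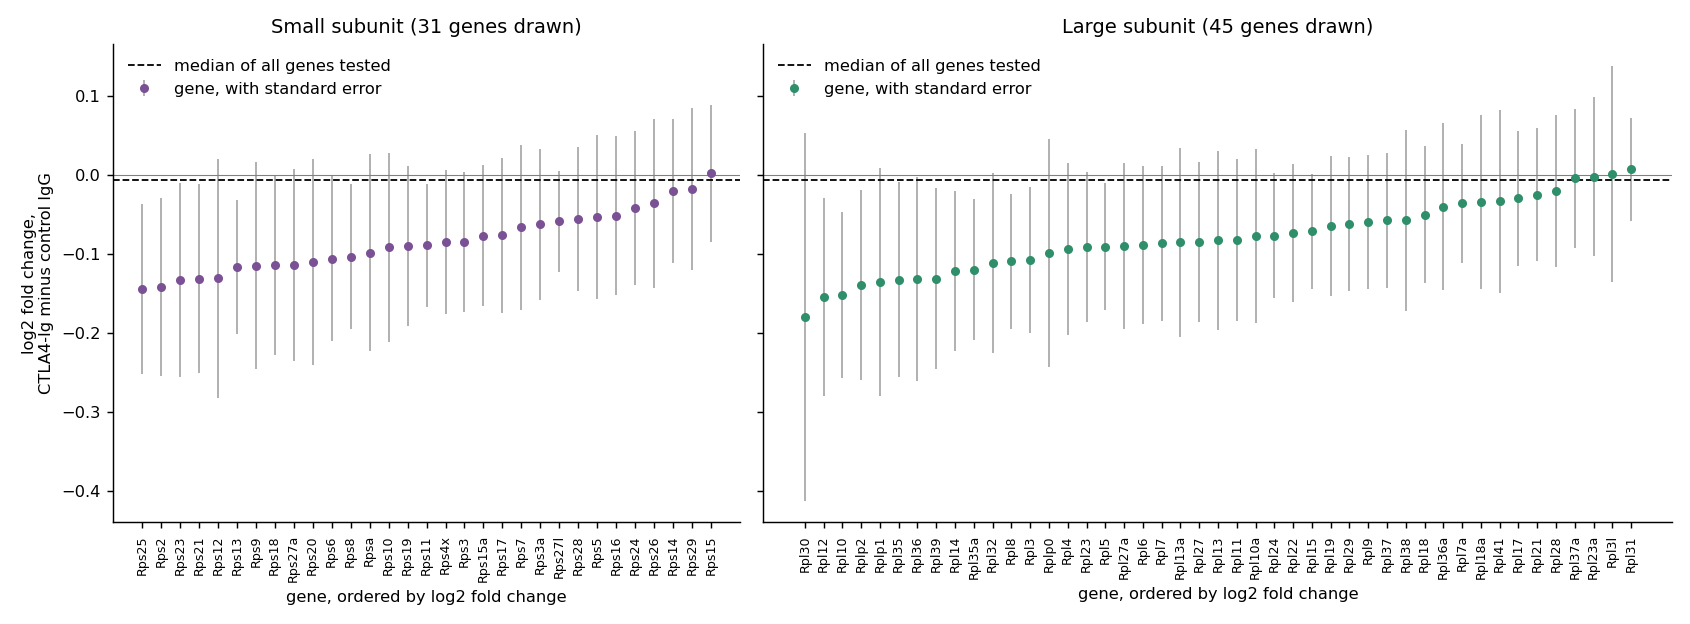
Log2 fold change, CTLA4-Ig minus control IgG, of small (left) and large (right) subunit genes with the standard error from limma (n = 3 per group). The dashed line is the median of all genes tested, and Rps27 and Rpl34, whose standard errors exceed 1, are left out. Nearly all points lie below 0, and most bars cross it.

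Among members, the smallest unadjusted p was that of Rpl10 (chrX:74270816-74273135), which joins the large subunit late in assembly, in a step tied to the release of the export factor Nmd3. Its values were 1994, 1885 and 2189.5 FPKM with CTLA4-Ig against 2525, 2141 and 2088 FPKM with control IgG. Control library 1 was highest and CTLA4-Ig library 3 lay above control libraries 2 and 3, so the groups overlapped. The log2 fold change was -0.15 ± 0.11 (SE) with an adjusted p of 0.890 by limma. Rps13, of the small subunit, had 1107, 1035 and 1216 FPKM with CTLA4-Ig against 1275, 1157 and 1203 FPKM with control IgG. Its log2 fold change was -0.12 ± 0.08, adjusted p 0.894. Rpl35a, mutated in some patients with Diamond-Blackfan anemia, had 1579, 1599 and 1873 FPKM with CTLA4-Ig against 1858, 1786 and 1829 FPKM with control IgG. CTLA4-Ig library 3 was the highest of the 6 for this gene, and the log2 fold change was -0.12 ± 0.09, adjusted p 0.899.

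Rps25, needed by several viral internal ribosome entry sites, had 1273, 1232 and 1439 FPKM with CTLA4-Ig against 1649, 1350.2 and 1368 FPKM with control IgG. The log2 fold change was -0.14 ± 0.11, adjusted p 0.899, and CTLA4-Ig library 3 was above control libraries 2 and 3. Rpl8, near the peptidyl transferase centre, had 1123, 1096 and 1234 FPKM with CTLA4-Ig against 1339, 1157 and 1230.2 FPKM with control IgG and a log2 fold change of -0.11 ± 0.09, adjusted p 0.900. Rps2, a protein of the mRNA entry channel, had 1179.7, 1139 and 1294 FPKM with CTLA4-Ig against 1540.5, 1185 and 1279.8 FPKM with control IgG and a log2 fold change of -0.14 ± 0.11, adjusted p 0.902. In both Rpl8 and Rps2, CTLA4-Ig library 3 reached into the control range. The 3 positive log2 fold changes were close to 0, at 0.0072 for Rpl31, 0.0021 for Rps15 and 0.0018 for Rpl3l, with adjusted p of 0.993, 0.9997 and 0.9998, and each turned negative under TPM scaling.

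The members also differed between libraries of the same group. For each member the deviation of log2(FPKM + 1) from its own mean over 6 libraries was taken, and the median over members was -0.09, -0.14 and 0.10 in CTLA4-Ig libraries 1, 2 and 3 and 0.18, -0.05 and 0.01 in control libraries 1, 2 and 3. The span from CTLA4-Ig library 2 to control library 1 was 0.32, or 1.25-fold. Within the CTLA4-Ig group the span was 0.25 and the SD 0.13, and within the control group they were 0.23 and 0.12. The difference between the group means was -0.08. A span of libraries is not a like measure for a difference of means. Of 78 members, 58 were highest in control library 1 and 15 in CTLA4-Ig library 3, while 65 were lowest in CTLA4-Ig library 2. In control library 1 and in CTLA4-Ig library 3, 76 members each were above their own mean. Control library 1 and CTLA4-Ig library 3, the 2 highest, had estimated relative depths of 0.954 and 1.15.

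After the median shift of each library was taken away, the members kept almost the same proportions in all libraries. The remaining standard deviation over libraries had a median of 0.046 on the log2 scale and was under 0.1 in 73 of 78 members. In 60 members all 6 remaining deviations lay within 0.1. The 5 members above 0.1 were Rpl34 (1.87), Rps27 (1.68), Rpl30 (0.29), Rps27l (0.17) and Rpl3l (0.14).

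The shared order is seen in Rps3, Rpl4 and Rps6. Rps3, at the mRNA entry site, had 554, 536 and 629 FPKM with CTLA4-Ig against 657, 565 and 600.0 FPKM with control IgG. Rpl4, which lines the exit tunnel, had 1109, 1084 and 1314 FPKM with CTLA4-Ig against 1386, 1158 and 1197 FPKM with control IgG. Rps6, the protein phosphorylated by S6 kinase downstream of mTORC1, had 878, 827 and 994 FPKM with CTLA4-Ig against 1082, 900.4 and 924 FPKM with control IgG. In all 3 genes control library 1 was highest, CTLA4-Ig library 3 second and CTLA4-Ig library 2 lowest. The log2 fold change of Rps6 was -0.11 ± 0.10 with an adjusted p of 0.911. A departure from this order was seen in Rpl21, which stood at 426.9, 426.8 and 427.1 FPKM in the control libraries and at 402.3, 388.1 and 473.3 FPKM with CTLA4-Ig, so the CTLA4-Ig values lay on both sides of the controls.

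**Figure D3:**
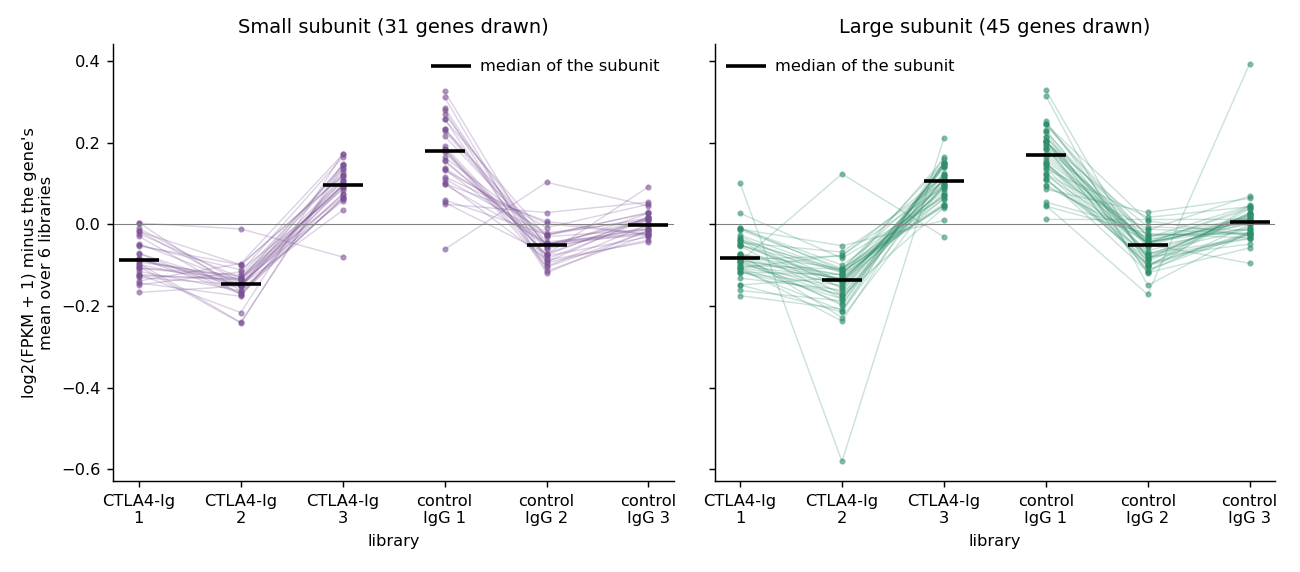
Deviation of log2(FPKM + 1) from each gene's mean over 6 libraries, by library, for 31 small (left) and 45 large (right) subunit genes. Thin lines join 1 gene within a group, black bars are subunit medians, and Rps27 and Rpl34 are not drawn. Both subunits are highest in control library 1 and lowest in CTLA4-Ig library 2.

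The small and the large subunit had the same order of libraries. The median deviation of the small subunit was -0.09, -0.15 and 0.10 with CTLA4-Ig against 0.18, -0.05 and -0.003 with control IgG, and that of the large subunit was -0.08, -0.14 and 0.11 against 0.17, -0.05 and 0.01. The difference in level between the subunits, median log2(FPKM + 1) of small minus large subunit genes, was 0.42, 0.40 and 0.41 with CTLA4-Ig against 0.36, 0.42 and 0.41 with control IgG. The lowest of the 6 was control library 1. Group means were 0.41 ± 0.01 and 0.40 ± 0.03 (SD, n = 3), a difference of 0.01 that is smaller than the spread of the control libraries.

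As a share of the summed FPKM, the 78 members held 13.1, 11.2 and 13.7% with CTLA4-Ig against 15.9, 13.6 and 14.6% with control IgG. The means were 12.7% ± 1.29 and 14.7% ± 1.12 (SD, n = 3), and CTLA4-Ig library 3 lay beside control library 2. With S100a8 and S100a9 taken out of the sum, the shares were 15.8, 14.3 and 17.1% against 18.5, 16.2 and 17.1%.

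Markers of neutrophil stages differed between libraries as well. The 4 primary granule genes Mpo, Elane, Prtn3 and Ctsg, made in granulocyte and monocyte precursors, had mean deviations of -0.23, -0.11 and 0.22 with CTLA4-Ig against 0.25, -0.07 and -0.07 with control IgG, so that control library 1 and CTLA4-Ig library 3 were highest here too. Their summed level ran from 2524 to 3429 FPKM with CTLA4-Ig and from 2814 to 3525 FPKM with control IgG, and 0 of the 4 had an unadjusted p under 0.05. The 11 late granule genes had mean deviations of 0.11, 0.48 and 0.29 against -0.14, -0.19 and -0.55. All 11 had positive log2 fold changes (median 0.58), 7 with an unadjusted p under 0.05 and 0 after adjustment, and their summed level ran from 172923 to 239171 FPKM against 133627 to 152619 FPKM. The part of these cells in the ribosomal protein values was not tested.

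Other markers followed other orders. The 6 monocyte and macrophage markers had mean deviations of 0.04, -0.22 and -0.01 with CTLA4-Ig against -0.04, 0.06 and 0.17 with control IgG, and summed levels of 3109.7 to 3448 and 3409 to 3673 FPKM. Erythroid markers (8 genes in the files) were summed at 8.75 FPKM in control library 1 and at 82.4 to 148.4 FPKM in the other 5 libraries, so the library with the highest ribosomal protein levels had the lowest erythroid levels. The 6 cycling markers, such as Mki67 and Top2a, varied little, with summed levels of 717.7 to 752 FPKM against 705.8 to 751.6 FPKM. The 5 bone stroma markers summed to 6.42 FPKM in control library 1 and 9.42 to 18.99 FPKM elsewhere. Their part in the ribosomal protein values was not tested.

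**Figure D4:**
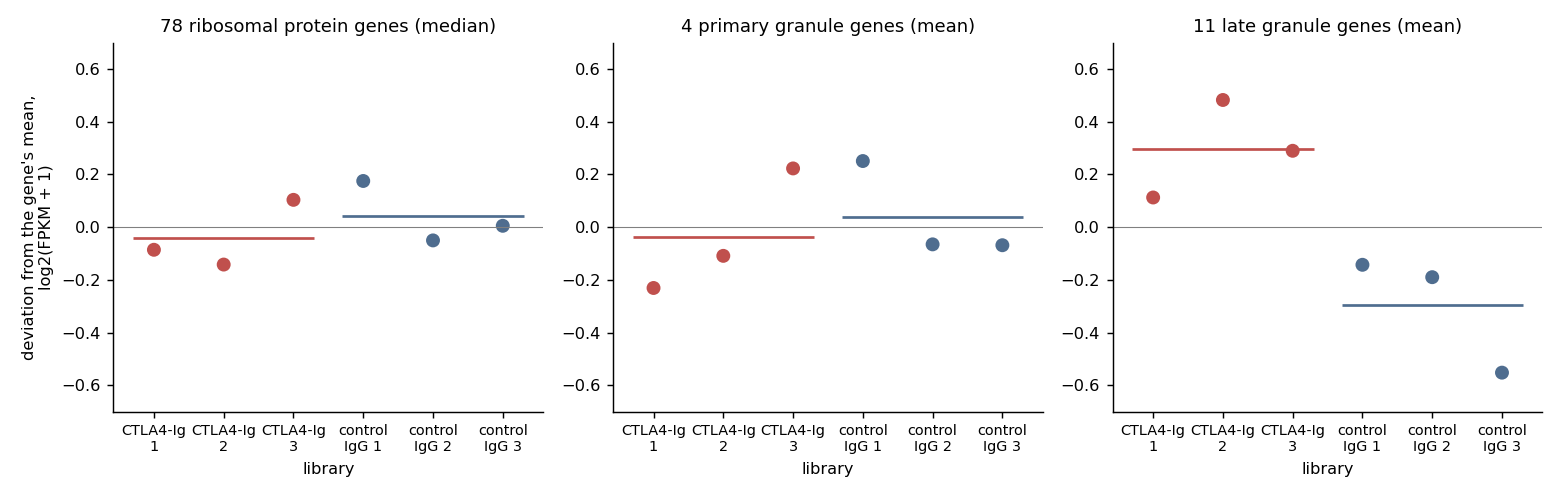
Deviation from the gene's mean over 6 libraries, log2(FPKM + 1), by library for the ribosomal protein genes (median of 78), the primary granule genes (mean of 4) and the late granule genes (mean of 11). Dots are libraries and horizontal lines are group means. The first 2 panels are highest in control library 1 and CTLA4-Ig library 3, while the last panel separates the groups.

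Functional sites of the ribosome were looked at next, from lists that overlap each other. The P stalk (Rplp0, Rplp1, Rplp2 and the base protein Rpl12) recruits and activates the GTPases of translation. Its 4 genes had log2 fold changes between -0.15 and -0.10, with a median of -0.14. Rplp0, which anchors the stalk, had 1492, 1416 and 1773 FPKM with CTLA4-Ig against 2001, 1449 and 1587 FPKM with control IgG, and control library 2 lay below CTLA4-Ig library 1. Its log2 fold change was -0.10 ± 0.14, adjusted p 0.939. Rplp2 had 1799.6, 1680.3 and 2107 FPKM with CTLA4-Ig against 2306, 1887 and 1955 FPKM with control IgG and a log2 fold change of -0.14 ± 0.12, adjusted p 0.904, and for Rplp1 the fold change was -0.14 ± 0.14, adjusted p 0.919. Without control library 1, the fold change of Rplp0 was 0.03.

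Rpl5 and Rpl11 form, with the small 5S RNA of the large subunit, the particle that binds Mdm2 and stabilises p53 when ribosome assembly is disturbed. Rpl5 had 468, 465 and 528 FPKM with CTLA4-Ig against 554, 486 and 515 FPKM with control IgG, and Rpl11 had 1359.5, 1301 and 1521 FPKM with CTLA4-Ig against 1650.1, 1362 and 1420.5 FPKM with control IgG. The 2 groups overlapped in each. Their log2 fold changes were -0.09 ± 0.08 (adjusted p 0.904) and -0.08 ± 0.10 (adjusted p 0.928). Rpl3, which reaches into the peptidyl transferase centre, had 789, 773 and 890.0 FPKM with CTLA4-Ig against 969, 819.5 and 856 FPKM with control IgG and a log2 fold change of -0.11 ± 0.09, adjusted p 0.904.

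At the exit tunnel, through which the new chain leaves, 7 genes were tested, with a median log2 fold change of -0.06 and 6 of 7 negative. Rpl23a, the docking site of factors that meet the new chain, had 2369, 2256 and 2708 FPKM with CTLA4-Ig against 2629, 2319 and 2382 FPKM with control IgG. The highest and the lowest library both belonged to the CTLA4-Ig group, and the log2 fold change was -0.0019 ± 0.10, adjusted p 0.9998. Rpl39, a short protein of the tunnel wall, had 1730.0, 1652 and 2150.3 FPKM with CTLA4-Ig against 2107, 1940.1 and 1976 FPKM with control IgG. Its log2 fold change was -0.13 ± 0.11, adjusted p 0.904. Rpl31, at the tunnel opening, had 594, 549.9 and 609.8 FPKM with CTLA4-Ig against 601, 574 and 569 FPKM with control IgG, with the highest value in CTLA4-Ig library 3.

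In the small subunit, Rps9, a protein of translational fidelity, had 2349, 2307 and 2652 FPKM with CTLA4-Ig against 3141, 2337 and 2485 FPKM with control IgG. Control library 1 stood apart from the other 5, and the log2 fold change was -0.11 ± 0.13, adjusted p 0.926. Rpsa, which is also known as the laminin receptor precursor, had 949, 940.4 and 1117 FPKM with CTLA4-Ig against 1255, 952 and 1024 FPKM with control IgG, a log2 fold change of -0.10 ± 0.12 and an adjusted p of 0.928. For both genes the fold change was slightly above 0 without control library 1, at 0.01 for Rps9 and 0.02 for Rpsa. Rps15, whose tail reaches the decoding site, had 1884, 1779.5 and 2071 FPKM with CTLA4-Ig against 1979, 1814 and 1925 FPKM with control IgG, with CTLA4-Ig library 3 highest. Rps28 had 2248, 2001 and 2360.3 FPKM with CTLA4-Ig against 2402, 2252 and 2203 FPKM with control IgG, a log2 fold change of -0.06 ± 0.09 and an adjusted p of 0.948.

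Genes mutated in Diamond-Blackfan anemia, an inherited failure of red cell production, were represented by 14 tested genes with a median log2 fold change of -0.08, all 14 negative and 0 with an unadjusted p under 0.05. Rps19, the gene most often mutated in it, had 1512, 1369 and 1615 FPKM with CTLA4-Ig against 1762, 1465 and 1563 FPKM with control IgG. The groups overlapped, and the log2 fold change was -0.09 ± 0.10, adjusted p 0.924. The 32 members whose protein families are shared by bacteria, archaea and eukaryotes had a median log2 fold change of -0.09, and the other 46 members -0.08. The remaining log2 fold changes of the named abundant genes were -0.02 ± 0.10 for Rps29, -0.03 ± 0.12 for Rpl41, -0.06 ± 0.11 for Rpl38 and -0.13 ± 0.15 for Rps12, with adjusted p of 0.988, 0.983, 0.961 and 0.926. For the less abundant genes they were -0.08 ± 0.09 for Rps15a and -0.07 ± 0.09 for Rpl22, with adjusted p of 0.927 and 0.928. Without control library 1, those of Rps29, Rpl41 and Rpl38 were 0.03, 0.07 and 0.04.

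For 4 ribosomal protein genes, a near-identical copy elsewhere in the genome had the higher FPKM. A copy was any other locus among GENCODE M21 transcripts with at least 98% of the coding bases of the gene identical in 1 alignment. Of the 81 names 63 had at least 1 copy, 209 copies in all, and 9 copies had a row in the files. Fragments that match a gene and its copy equally well may be assigned to either, and no source used here says how this was done. The values of these rows are therefore uncertain.

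Stretches of the 4 pairs are shown because the letters that tell each gene from its copy are so few. They are coding sequence of GENCODE M21 (GRCm38), 5′ to 3′ in the sense of the mRNA, in lower case with differing bases in capitals.
Rps27 (chr3:90212667-90213648), coding bases 1 to 60: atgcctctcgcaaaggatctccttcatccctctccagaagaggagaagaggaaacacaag
Gm9846 (chr9:114982366-114982739), the same bases: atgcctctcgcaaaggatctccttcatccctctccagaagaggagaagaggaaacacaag
Rpl26 (chr11:68901566-68904534), coding bases 147 to 206: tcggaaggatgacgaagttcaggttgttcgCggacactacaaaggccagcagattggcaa
Gm15772 (chr5:3236431-3236868), the same bases: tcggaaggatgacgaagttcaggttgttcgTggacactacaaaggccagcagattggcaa
Rpl34 (chr3:130726827-130730398), coding bases 102 to 161: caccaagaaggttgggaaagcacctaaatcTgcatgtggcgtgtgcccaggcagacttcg
Rpl34-ps1 (chr6:71124610-71124963), the same bases: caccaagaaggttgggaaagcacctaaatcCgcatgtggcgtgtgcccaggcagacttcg
Rpl30 (chr15:34440505-34443276), coding bases 66 to 125: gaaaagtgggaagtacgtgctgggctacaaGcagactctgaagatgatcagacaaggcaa
Gm12191 (chr11:49678710-49679057), the same bases: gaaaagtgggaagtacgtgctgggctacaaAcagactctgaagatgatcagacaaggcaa
Positions are counted from 1 at the first coding base. Rps27 and Gm9846 (Rps27rt in GENCODE M21) differed at 0 of 255 coding bases. Rpl26 and Gm15772 differed at 2 of 438 (C177T and T288C), Rpl34 and Rpl34-ps1 at 2 of 354 (T132C and C318G), and Rpl30 and Gm12191 at 1 of 348 (G96A). GENCODE M21 lists Gm9846 as protein coding and the other 3 copies as processed pseudogenes.

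Rps27, a zinc-binding protein of the small subunit, had 1037, 36.9 and 320.3 FPKM with CTLA4-Ig against 563, 650.1 and 178 FPKM with control IgG, a 28.1-fold range. Its copy Gm9846 had 2273, 2963 and 3175 FPKM with CTLA4-Ig against 3059, 2669 and 3155 FPKM with control IgG. The row of the gene was lowest in CTLA4-Ig library 2 and highest in CTLA4-Ig library 1, where the row of the copy was lowest. The sum of both rows was 3310.2, 2999.6 and 3496 FPKM with CTLA4-Ig against 3622, 3319.6 and 3333 FPKM with control IgG, a range of 1.21-fold. In the sum, control library 1 was highest and CTLA4-Ig library 2 lowest, the order of the other members.

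Rpl34, of the large subunit, had 26.3, 276 and 819.5 FPKM with CTLA4-Ig against 123, 292 and 939.5 FPKM with control IgG, a 35.7-fold range, and Rpl34-ps1 had 1712, 1347 and 1210.1 FPKM with CTLA4-Ig against 1908, 1559 and 957 FPKM with control IgG. The gene's row was highest where the copy's row was lowest, in control library 3 and CTLA4-Ig library 3. Together they came to 1739, 1623 and 2029.6 FPKM with CTLA4-Ig against 2032, 1850.2 and 1897 FPKM with control IgG, a range of 1.25-fold. Rpl34 held from 1.51% of the sum in CTLA4-Ig library 1 to 49.5% in control library 3. The fitted log2 fold changes of the single rows, -0.79 ± 1.16 for Rps27 and -0.82 ± 1.28 for Rpl34, had standard errors above 1, while those of the sums were -0.07 ± 0.09 and -0.11 ± 0.10, with adjusted p of 0.933 and 0.911 by limma.

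Rpl30 stood at 32.01, 19.6 and 34.7 FPKM with CTLA4-Ig against 30.8, 26.3 and 39.5 FPKM with control IgG, and its copy Gm12191 at 1257, 1252 and 1524 FPKM with CTLA4-Ig against 1525, 1442 and 1427 FPKM with control IgG. Rpl30 held 1.54 to 2.69% of the sum in the 6 libraries. The log2 fold change was -0.18 ± 0.23 (adjusted p 0.929) for the row of the gene and -0.13 ± 0.10 (adjusted p 0.898) for the sum. Rpl26, listed at 0 in all 6 libraries, has the copy Gm15772 with 1641, 1618 and 2023 FPKM with CTLA4-Ig against 1965, 1744 and 1817 FPKM with control IgG. Control library 1 and CTLA4-Ig library 3 were the 2 highest for both copies. The log2 fold change of Gm15772 was -0.07 ± 0.11, adjusted p 0.942. With the 4 pairs summed, the standard deviation left after the library shift was 0.049 for Rps27, 0.042 for Rpl26, 0.040 for Rpl34 and 0.058 for Rpl30, close to the median of 0.046 over all members.

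**Figure D5:**
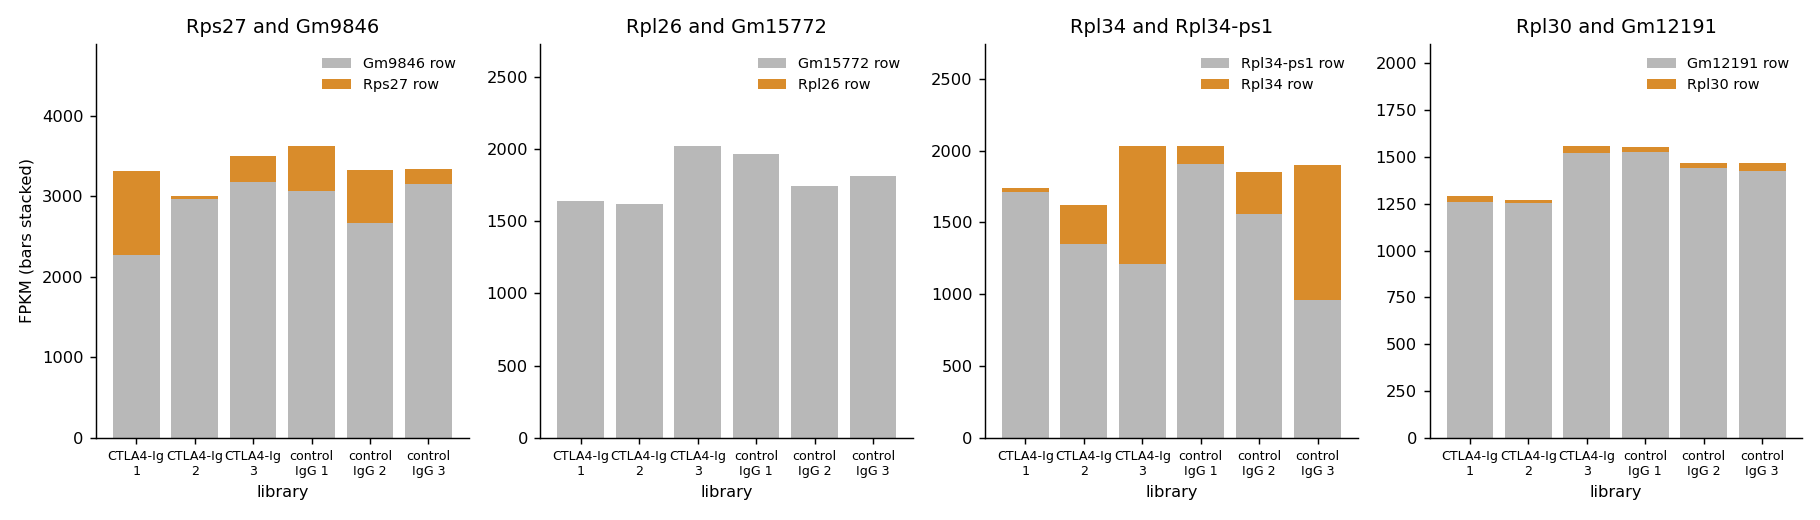
FPKM of a ribosomal protein gene (orange) stacked on that of its near-identical copy (grey) in 6 libraries, for Rps27, Rpl26, Rpl34 and Rpl30. The division between the rows swings for Rps27 and Rpl34, while the stacked heights range over 1.21-fold to 1.25-fold.

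The other 5 copy rows were low beside the gene. BC004004, matched to Rpl21 with 7 of 483 coding bases differing, had a mean of 23.8 FPKM against 424.1 FPKM. Rps15a-ps6 had 2.73 FPKM against 89.7 FPKM for Rps15a, and Wdr89 had 2.17 FPKM against 1956 FPKM for Rplp2. Gm9320, a copy of Rps24, and Rpl31-ps12, a copy of Rpl31, had means of 0.509 and 0.177 FPKM. What fragments of the remaining copies added to the rows of the genes was not tested.

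Fau and Gnb2l1, core genes outside the name rule, stood at the level of the members. Fau, made as a fusion with a ubiquitin-like protein, had 2031, 1927 and 2091 FPKM with CTLA4-Ig against 2178, 1857 and 1905 FPKM with control IgG and a log2 fold change of 0.03 ± 0.09, adjusted p 0.979. Gnb2l1, the scaffold protein known as Rack1 on the small subunit head, had 1005, 977 and 1118 FPKM with CTLA4-Ig against 1219, 1027 and 1099.6 FPKM with control IgG and a log2 fold change of -0.11 ± 0.09, adjusted p 0.904. Rps3a, a member, is the row of Rps3a1 by its older symbol. Over the 79 core genes tested, without Rpl26, the median log2 fold change was also -0.09.

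Paralogs of core proteins differed in level. Rps27l, a p53 target, had 285, 282 and 269 FPKM with CTLA4-Ig against 272, 305 and 293 FPKM with control IgG, with the highest value in control library 2 and the lowest in CTLA4-Ig library 3, so it did not follow the library order of the other members. Its log2 fold change was -0.06 ± 0.06, adjusted p 0.920. Rpl22l1, the paralog of Rpl22, had 162, 176 and 196 FPKM with CTLA4-Ig against 202, 187 and 195 FPKM with control IgG, above Rpl22 in all 6 libraries. Rpl36al had 583, 553 and 584 FPKM with CTLA4-Ig against 707, 593 and 595 FPKM with control IgG, with all 3 CTLA4-Ig libraries below the controls, a log2 fold change of -0.14 ± 0.09 and an adjusted p of 0.890. Rpl7l1 had 47.4, 48.02 and 43.8 FPKM with CTLA4-Ig against 46.3, 46.9 and 43.1 FPKM with control IgG with a fold change of 0.03 ± 0.06, and Rps4y2 had 13.7 to 19.9 FPKM with CTLA4-Ig against 13.1 to 18.6 FPKM with control IgG.

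Lists of genes that make, regulate or work with ribosomes had medians from -0.12 (biogenesis) to -0.04 (quality control). The median was -0.09 over the members and -0.01 over all genes tested. The 2 genes named from each list were those with its smallest p. Among all genes tested, 6.07% had an unadjusted p under 0.05 and 12.2% had no overlap between groups. Of 41 genes of ribosome biogenesis 38 were negative (median -0.12), 1 lower and 0 higher at an unadjusted p under 0.05, and 0 after adjustment. Every CTLA4-Ig library lay below the controls in 8 of the 41 and above them in 1. Mean deviations of the 41 genes were -0.01, -0.14 and -0.02 with CTLA4-Ig against 0.09, 0.08 and -0.005 with control IgG. Gtpbp4, a GTPase of large subunit assembly, had 20.5, 20.5 and 19.99 FPKM with CTLA4-Ig against 22.7, 22.4 and 21.8 FPKM with control IgG, and all CTLA4-Ig libraries lay below the controls. Its log2 fold change was -0.13 ± 0.05, adjusted p 0.817. Heatr1, a factor of ribosomal RNA synthesis and processing, had 12.9, 11.01 and 10.6 FPKM with CTLA4-Ig against 13.95, 13.6 and 12.8 FPKM with control IgG, a log2 fold change of -0.21 ± 0.09 and an adjusted p of 0.817. Groups overlapped for Heatr1. For the 15 genes of RNA polymerase I and its factors the median was -0.09, 13 were negative, and 2 were lower at an unadjusted p under 0.05. These were Cd3eap (log2 fold change -0.32 ± 0.10, adjusted p 0.720) and Taf1a (-0.30 ± 0.11, adjusted p 0.758).

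Initiation factors (35 genes) had a median of -0.08 with 31 negative. Every CTLA4-Ig library lay below the controls in 6 of the 35 and above them in 0. At an unadjusted p under 0.05, 2 genes were lower. Those 2 were Eif3b, with 67.3, 60.3 and 63.5 FPKM with CTLA4-Ig against 76.8, 73.7 and 72.8 FPKM with control IgG, and Eif3e, with 118, 115 and 133 FPKM with CTLA4-Ig against 145, 143 and 141 FPKM with control IgG. Both are subunits of the complex that holds the small subunit to mRNA, and in both every CTLA4-Ig library lay below the controls. Log2 fold changes were -0.22 ± 0.06 and -0.23 ± 0.07, with adjusted p of 0.720 and 0.720. Among 16 other genes with a TOP motif, such as elongation factors, the median was -0.07, with 15 negative and Eif3e the only gene at an unadjusted p under 0.05. Npm1, a nucleolar chaperone in that list, had a log2 fold change of -0.12 ± 0.10, adjusted p 0.904. The 10 snoRNA host genes had a median of -0.12, 9 negative, and mean deviations of -0.14, -0.21 and 0.20 against 0.10, 0.01 and 0.05. Snhg5 and Snhg3 in that list had log2 fold changes of -0.17 ± 0.10 and -0.20 ± 0.14, with adjusted p of 0.870 and 0.890. The 13 genes of chain-binding and targeting factors had a median of -0.07 with 12 negative and 0 at an unadjusted p under 0.05, led by Naca (-0.12 ± 0.07, adjusted p 0.877) and Srp9 (-0.14 ± 0.09, adjusted p 0.890).

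Regulators were divided in sign. Of 19 tested genes of the mTOR and Myc pathways 11 were negative (median -0.05), with 2 lower and 2 higher at an unadjusted p under 0.05 and 0 after adjustment. Every CTLA4-Ig library lay below the controls in 3 of the 19 and above them in 2. Mlst8, a subunit of the mTOR complexes, had 26.1, 30.03 and 22.7 FPKM with CTLA4-Ig against 19.05, 21.6 and 18.7 FPKM with control IgG, with every CTLA4-Ig library above the controls. Its log2 fold change was 0.39 ± 0.11, adjusted p 0.720. Myc, a transcription factor that drives ribosome production, had 23.2, 26.4 and 22.7 FPKM with CTLA4-Ig against 29.5, 29.03 and 27.2 FPKM with control IgG, with every CTLA4-Ig library below the controls, a log2 fold change of -0.24 ± 0.08 and an adjusted p of 0.720. In ribosome quality control (14 genes, median -0.04, 11 negative), Zfand2b was the 1 gene higher at an unadjusted p under 0.05 (0.27 ± 0.07, adjusted p 0.720), and Abce1, the recycling factor, had -0.15 ± 0.07, adjusted p 0.847.

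Mitochondrial ribosomal proteins form the separate ribosomes of mitochondria. Their list was taken by name alone, as Mrps or Mrpl followed by a number. A place in the mitochondrial ribosome was not checked for each gene, Mrps36 included. The 76 genes had mean deviations of -0.01, -0.07 and -0.01 with CTLA4-Ig against 0.06, 0.01 and 0.02 with control IgG. The median log2 fold change was -0.05 with 56 negative. At an unadjusted p under 0.05, 3 were lower and 0 higher, against 6.07% of all genes called, and 0 passed adjustment. Every CTLA4-Ig library lay below the controls in 9 of the 76 and above them in 2, while 12.2% of all genes did not overlap. The 2 genes with the smallest p follow. Mrps36 had 29.1, 30.7 and 32.8 FPKM with CTLA4-Ig against 37.5, 38.1 and 38.4 FPKM with control IgG and Mrpl47 had 12.2, 12.97 and 13.5 FPKM with CTLA4-Ig against 16.9, 15.6 and 15.9 FPKM with control IgG. In both, all CTLA4-Ig libraries lay below the controls, with log2 fold changes of -0.29 ± 0.06 and -0.30 ± 0.07 and adjusted p of 0.720 and 0.720. The difference between the cytosolic and the mitochondrial genes was not tested.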

How the data were processed

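RNA-seq was made from 6 libraries of sorted EGFP+ cells, 3 per group, with a miRNeasy kit and a stranded TruSeq mRNA kit, per the labels' protocols. The submitters' processing notes name Cuffnorm 2.2.1, SAMtools 0.1.19, Bowtie2 2.2.3, TopHat2 2.0.13 and build mm10. No source used here gives settings, the annotation, the use of strand or the handling of fragments with several matches. Each deposited file holds FPKM by gene name for 1 library, as scaled by the authors. Counts were not used here, so precision comes from the spread of libraries, and relative depth was read from the spacing of low values.

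Groups came from the treatment label. Genes whose mean reached 1 FPKM were tested with limma 3.58.1 (R 4.3.3) on log2(FPKM + 1) with a trend, all 6 libraries and no covariate. Benjamini-Hochberg adjustment ran over 10865 genes, with a threshold of 0.05. The pseudocount of 1 understates changes of low genes. The fit was also run on simulated data in which genes varied independently and planted changes were larger than those of most members. That run does not show how well changes of the members' size are resolved. Copies were found with blastn 2.17.0 (word size 11) among GENCODE M21 transcripts. Coordinates of ribosomal protein genes, and promoter sequences, are RefSeq's (GRCm38.p6), while coordinates of the copies are those of GENCODE M21. Tables were handled with Python 3.11.15, pandas 2.3.3, numpy 2.4.6 and matplotlib 3.10.9.

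Members and lists were chosen with earlier results of these data known, so no list was tested and lists are described by counts and medians. Statistics are given for members with the smallest p in each direction, the most and least abundant of each subunit, a list of well-known members, and the 2 genes with the smallest p of each related list. Values of Rps3, Rpl4, Rpl12, Rpl21 and Rpl34 were added after they had been seen. Alternatives were other pseudocounts, filters, scalings, priors, weights, a replicate block, the 80 core genes and leaving out each library, and, chosen after seeing the data, summing 4 copy rows and leaving out Rps27 and Rpl34. Same-numbered libraries had correlations of deviations from the group means of -0.15, -0.09 and -0.02, so the numbers were not taken to pair them.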

Additional observations from a re-analysis of the deposited data

How the results depend on the processing

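In none of the 21 alternatives was a ribosomal protein gene called, and the median over the members stayed negative, from -0.02 (without control library 1) to -0.22 (TPM). Over the fits that leave out 1 library it ran from -0.16 to -0.02 for the members, from -0.16 to -0.02 for the small subunit and from -0.16 to -0.01 for the large subunit. With TPM scaling it was -0.22 for the members, -0.23 for the small and -0.22 for the large subunit, and with array weights -0.04 for the members. The TPM shift is shared by all genes, whose median moves to -0.13. Members without overlap numbered 4 with quantile normalization (against 12.1% of all genes), 31 with TPM (against 24.3% of all genes), 6 with a common sum that leaves out S100a8 and S100a9 (against 14.3% of all genes), and 0 to 44 when 1 library was left out (against 17.9% to 26.2% of all genes). The difference in share of summed FPKM was -2.06 percentage points, -0.733 with quantile normalization, and -2.60 to -1.34 with 1 library left out. Small minus large subunit ran from -0.01 to 0.02 in those fits. All genes called numbered 12 without a filter on low values, and 0 to 6 with 1 library left out. The replicate block gave a median of -0.09 with 619 genes of all at an unadjusted p under 0.05, against 659 without it, and changed no call. Summing the copy rows gave a median of -0.0848 and leaving out Rps27 and Rpl34 gave -0.0849, against -0.0851 in the main fit.

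The sign changed under at least 1 alternative in 29 of the 78 members, 20 of them without control library 1, 16 without CTLA4-Ig library 2 and 14 with array weights. Values follow for 13 of the 29, those among the 31 members whose statistics were followed through every alternative. Rpl23a was 0.0015 with median-of-ratios scaling, 0.023 with quantile normalization, 0.030 with array weights and -0.078 to 0.054 with 1 library left out. Rpl41 was 0.014 with quantile normalization, 0.042 with array weights and -0.10 to 0.071 with 1 left out. Rps29 was 0.0099 with quantile normalization, 0.0082 with array weights and -0.086 to 0.044 with 1 left out. Rpl38 was 0.0030 with array weights and -0.12 to 0.036 with 1 left out. Rps15 was -0.022 with quantile normalization, -0.135 with TPM, -0.051 without S100a8 and S100a9 in the sum and -0.057 to 0.052 with 1 left out. Rpl3l was -0.022, -0.071, -0.026 and -0.060 to 0.059 in the same order. Rpl31 was -0.130 with TPM, -0.045 without the S100 pair in the sum and -0.024 to 0.050 with 1 left out. For the other 6 of these 13 the sign changed only when 1 library was left out, with ranges of -0.33 to 0.066 for Rpl30, -1.87 to 0.52 for Rps27, -0.11 to 0.012 for Rps28, -0.20 to 0.034 for Rplp0, -0.20 to 0.013 for Rps9 and -0.18 to 0.017 for Rpsa. The cause was not tested. With 3 libraries per group the typical standard error of a member was 0.10 on the log2 scale. Differences of that size, and somewhat larger ones, were not resolved. An example is Rpl10, at -0.15 ± 0.11 with an unadjusted p of 0.195 by limma.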
